A study of Mus musculus with 6 samples.

Results

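The chaperones and proteases of mitochondria are described here at the level of their messenger RNA, in the interscapular brown fat of mice with and without UCP1. The set holds 10 named genes, all 10 of which were found among the 29072 genes of the table. The rule takes them by symbol and uses no measured value, but the set was proposed with earlier results of these data known. The animals labelled UCP1(-/-) lack a working Ucp1 gene and are called knockout, and the others are labelled wildtype. All libraries came from the C57BL/6J strain, 3 of them from knockout and 3 from wildtype brown fat. The labels used here give no age, sex, housing temperature or way of making the knockout, and do not say that replicates came from separate animals. Each p-value is therefore measured against the spread among these libraries, and that spread may be technical.

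Most mitochondrial proteins are made in the cytosol and must be folded after import and removed when damaged. Hspa9, the Hsp70-type chaperone of the matrix, pulls proteins in and begins folding, and the chaperonin of Hspd1 with its lid Hspe1 completes it. Clpx and Clpp together form a matrix protease, in which Clpx unfolds the protein and Clpp cuts it, and Lonp1 is a second matrix protease. Afg3l2, Yme1l1 and Oma1 are proteases of the inner membrane. In mammals, stress on mitochondrial protein folding is tied to the transcription factors ATF4, ATF5 and CHOP (gene Ddit3).

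Clpx was the 1 gene of the 10 to pass the test, and it was higher in knockout brown fat. Lonp1 was also above wildtype in every knockout library but did not pass. Hspe1 lay below wildtype in every knockout library and did not pass either. The other 7 genes overlapped between genotypes. Groups without overlap, 3 of these 10, made up 29.3% of all tested genes. Limma called 887 of 11562 tested genes at an adjusted p under 0.05, which is 7.67% of them, so 1 called gene of 10 is near the background. Calls in the upward direction made up 6.95% of tested genes. The median log2 change was 0.011 over the 10 genes and 0.075 over all tested genes.

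Promoter sequence is shown for the genes whose groups did not overlap, Clpx, Lonp1 and Hspe1, the last of which shares its promoter with Hspd1. The sequences are RefSeq's on build GRCm38.p6, and the build used by the authors is not given in the sources used here. Windows of 250 bases before the start were matched by gene identifier for 8 of the 10 genes, leaving Afg3l2 and Hspa9 as the genes without one. For Clpx the window is chr9:65294010-65294259 on the plus strand. For Lonp1 it is chr17:56626904-56627153 on the minus strand. For the Hspd1 and Hspe1 pair, 30 bases at chr1:55088053-55088082 are shown on the strand of Hspe1, with a heat shock element of 18 bases in capitals.
Clpx: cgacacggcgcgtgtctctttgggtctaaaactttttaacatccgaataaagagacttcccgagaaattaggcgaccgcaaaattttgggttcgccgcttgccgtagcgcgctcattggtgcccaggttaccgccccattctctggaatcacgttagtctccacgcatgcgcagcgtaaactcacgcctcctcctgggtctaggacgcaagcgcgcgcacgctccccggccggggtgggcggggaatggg
Lonp1: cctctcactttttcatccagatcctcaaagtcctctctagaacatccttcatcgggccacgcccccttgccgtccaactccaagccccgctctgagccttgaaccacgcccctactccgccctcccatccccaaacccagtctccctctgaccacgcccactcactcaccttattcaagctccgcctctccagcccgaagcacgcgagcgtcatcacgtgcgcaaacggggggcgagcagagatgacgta
Hspd1 and Hspe1: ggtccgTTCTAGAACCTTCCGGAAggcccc

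Motifs were searched on both strands of these windows. The heat shock element, bound by HSF1, was searched as its units TTC, GAA and TTC with any 2 bases (NN) between neighbours, and occurs in 0.466% of 32851 mouse promoter windows of the same length. Among the 8 genes with a window it was found between Hspd1 and Hspe1, where the same bases lie before both genes. The element lies 71 bases before the RefSeq start of Hspe1 and 126 bases before the facing start of Hspd1. It is in 1 of the 2 Hspd1 windows, and GENCODE places an exon of an Hspd1 transcript over it. The core TGATGNAA of the elements bound by ATF4 with C/EBP proteins occurs in 3.45% of windows and in none of the 9 windows of these genes. The cAMP response element TGACGTCA occurs in 1.55% of windows and was found before Trap1. A match, or none, in such a window describes these letters and not the binding of a factor.

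The libraries were similar in depth, with 15800000 to 18000000 reads implied by the spacing of low values. Ucp1, the uncoupling protein that gives the knockout its name, stood at 372 to 389 RPKM (reads per kilobase of transcript, scaled to library size) in knockout and 1714 to 3151 RPKM in wildtype libraries. The knockout libraries carried more RNA of skeletal muscle, with all 18 muscle markers called higher. The summed level of those markers was 1913 to 2195 RPKM in knockout and 65.9 to 315 RPKM in wildtype libraries. Apart from Ucp1, 9 genes listed as brown adipocyte markers summed to 11945 to 12814 RPKM in knockout and 11174 to 12397 RPKM in wildtype. The groups overlapped, with none of the 9 listed at 0. Fabp4 made up most of this sum, at 8418 to 9270 RPKM in knockout and 7741 to 9071 RPKM in wildtype libraries. Like Adipoq, Plin1 and Pparg in the same list, Fabp4 is a gene of adipocytes in general. The sum is therefore not specific to brown adipocytes. Limma called 1 of the 9 higher and 1 lower, against 6.95% and 0.718% of tested genes. Macrophage markers summed to 76.3 to 104 RPKM in knockout and 48.0 to 75.5 RPKM in wildtype, without overlap. White adipocyte markers summed to 94.8 to 163 RPKM in knockout and 31.7 to 99.9 RPKM in wildtype, with overlap. Limma called 1 of 10 macrophage and 1 of 4 tested white adipocyte markers higher and none lower. An unadjusted limma p under 0.05 was found for 8 of 10 macrophage markers, against 23.5% of tested genes. Endothelial markers summed to 168 to 186 RPKM and to 163 to 181 RPKM, and red blood cell markers to 89.1 to 131 RPKM and to 92.1 to 203 RPKM, in knockout and wildtype. In bulk tissue, fewer cells of a type and less RNA per cell cannot be told apart.

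The 10 genes spanned a wide range of levels, in RPKM, which scales for transcript length. Hspa9 was the most abundant at 355 ± 39.8 RPKM (SD over 6 libraries), and Oma1 the least at 4.23 ± 0.290 RPKM. Trap1, the Hsp90-type chaperone of mitochondria, came after Hspa9 at 98.8 ± 2.87 RPKM. Hspd1, Afg3l2 and Lonp1 followed at 79.6, 73.7 and 65.6 RPKM, and neighbours in this stretch overlapped between libraries. Clpp stood at 54.2 RPKM, apart from Clpx at 39.8 RPKM in every library. The ranges of Clpx and Hspe1 (33.0 RPKM) overlapped, while Yme1l1 at 16.7 RPKM and Oma1 lay apart from their neighbours.

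The reads behind these levels set their precision. With GENCODE transcript lengths, an Oma1 value rests on about 128 to 139 reads per library and an Hspe1 value on about 346 to 448. Clpx rests on about 1496 to 2239 reads and Hspa9 on about 15747 to 20507. Hspd1 and Hspe1 have near-identical copies elsewhere in the mouse genome, so their counted reads are uncertain. The same holds for Hspa8 and Hsp90ab1 among the cytosolic chaperones described further on.

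**Figure D1:**
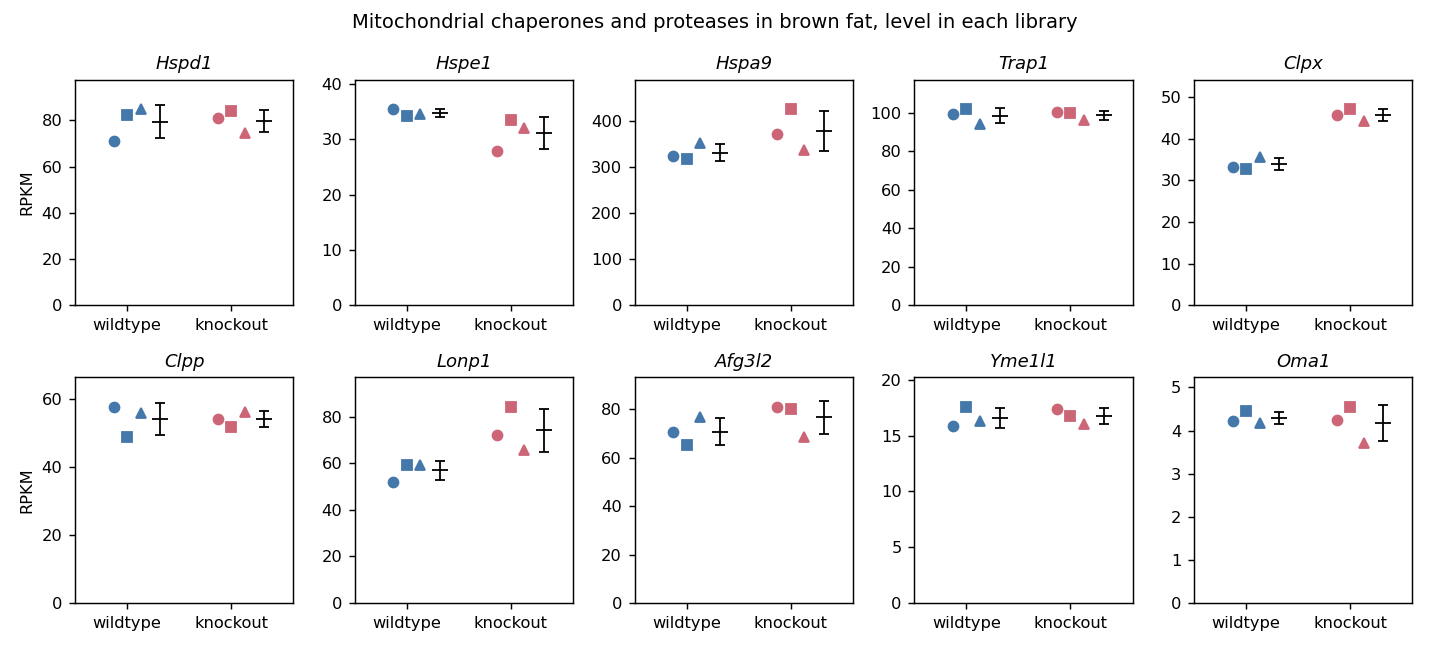
Level in RPKM (y axis, from 0) of each of the 10 genes in wildtype (blue) and knockout (red) libraries, with circles, squares and triangles for replicates 1, 2 and 3 and bars for mean ± SD (n = 3). Clpx and Lonp1 show knockout points above every wildtype point, Hspe1 shows them below, and the other 7 panels overlap.

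Among the matrix proteases, Clpx, the unfolding subunit, rose in knockout brown fat. It stood at 45.8, 47.1 and 44.2 RPKM in knockout replicates 1, 2 and 3, and at 33.3, 32.8 and 35.5 RPKM in wildtype replicates 1, 2 and 3. The groups did not overlap, and the gap between them was wider than the spread inside either. The means were 45.7 ± 1.44 RPKM and 33.9 ± 1.42 RPKM (SD, n = 3 each), a ratio of 1.35. The log2 change was 0.42 (SE 0.069, 95% interval 0.26 to 0.58), with a limma adjusted p = 0.00769. This change exceeded that of 92.5% of tested genes. Knockout values lay above wildtype in every library for 24.2% of tested genes, and for 14.1% after median-of-ratios scaling, so separation alone is common in these libraries.

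The table lists 8 transcript rows for Clpx, 7 of them with a mean of at least 1 RPKM. All 7 were higher in knockout libraries with no overlap between groups, by log2 differences of 0.34 to 0.45. The rows share reads and are not independent of each other. The remaining row held 0.379 RPKM in knockout and 0.329 RPKM in wildtype and overlapped.

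Muscle RNA moved with genotype, so its level is set beside Clpx. Wildtype replicate 3, with the least muscle RNA (summed markers 65.9 RPKM), held the most Clpx of the wildtype libraries. Wildtype replicate 2, with the most (315 RPKM), held the least Clpx. Among knockout libraries, replicate 3 was lowest in both, with summed markers of 1913 RPKM. The part of muscle RNA in the Clpx difference was not tested.

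Clpp, the proteolytic partner of Clpx, did not differ between genotypes beyond its spread. It stood at 54.3, 51.7 and 56.4 RPKM in knockout and at 57.8, 48.9 and 56.0 RPKM in wildtype replicates 1, 2 and 3. The highest and the lowest library were both wildtype, with all knockout libraries between them. Its log2 change of 0.00042 had a 95% interval of -0.19 to 0.19 (limma adjusted p = 0.998).

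Lonp1, the ATP-dependent protease that also degrades oxidised matrix proteins, was higher in each knockout library but varied more. It stood at 72.3, 84.3 and 65.9 RPKM in knockout replicates 1, 2 and 3, and at 52.2, 59.5 and 59.3 RPKM in wildtype. Knockout replicate 2 was the high library, and the lowest knockout value still exceeded the highest wildtype value. The means were 74.2 ± 9.36 and 57.0 ± 4.16 RPKM (SD, n = 3 each), with a log2 change of 0.37 (95% interval 0.13 to 0.61). The limma adjusted p = 0.0698 missed the threshold, and it ranged from 0.0570 to 0.204 over 15 alternatives. Both transcript rows of Lonp1 separated the groups in the same way, but they hold near-equal values and are not independent of each other.

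**Figure D2:**
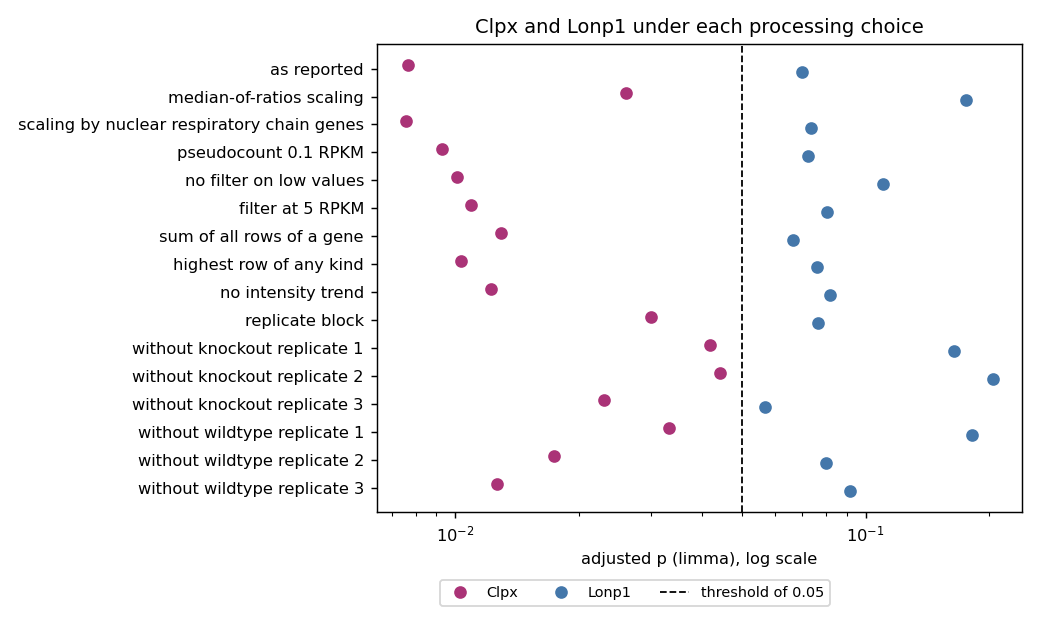
Adjusted p of limma (x axis, log scale) for Clpx and Lonp1 under the reported choice and 15 alternatives (y axis), with the threshold of 0.05 dashed. Every Clpx point lies left of the line, up to 0.0441, and every Lonp1 point lies right of it, from 0.0570.

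Ratios within a library do not depend on how libraries are scaled, and 7 were computed. The ratio of Clpx to Clpp was 0.843, 0.910 and 0.784 in knockout replicates 1, 2 and 3 and 0.576, 0.670 and 0.634 in wildtype. The lowest knockout ratio exceeded the highest wildtype ratio. The means were 0.846 ± 0.063 and 0.627 ± 0.047 (SD, n = 3 each), and the two-sided exact permutation p = 0.10 is the smallest that 3 against 3 libraries allow. Adjusted over the 7 ratios by the Benjamini-Hochberg method it became 0.35. The ratio of Lonp1 to Clpp overlapped between groups, at 1.38 ± 0.234 and 1.06 ± 0.156 (exact permutation p = 0.20, n = 3 each). The ratio of Clpx to Lonp1 was 0.621 ± 0.057 in knockout and 0.596 ± 0.043 in wildtype and overlapped (exact permutation p = 0.60, n = 3 each).

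**Figure D3:**
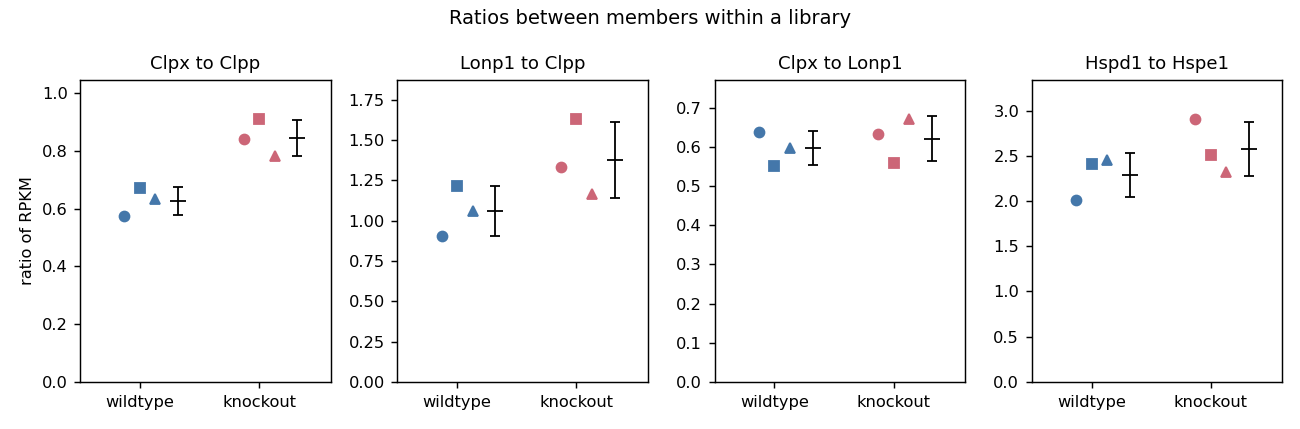
Ratio of RPKM (y axis, from 0) between pairs of genes within each library, wildtype in blue and knockout in red, with circles, squares and triangles for replicates 1, 2 and 3 and bars for mean ± SD (n = 3). The Clpx to Clpp ratio separates the groups, from 0.784 upward in knockout and up to 0.670 in wildtype, and the other 3 drawn overlap. Of the 7 ratios computed, that of Hspa9 to Grpel1 also did not overlap and is not drawn.

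Among the chaperones, none passed the test (limma, 0 of 4, also 0 of 4 at an unadjusted p under 0.05). Over all tested genes the shares were 7.67% and 23.5%. Hspa9 stood at 371, 426 and 338 RPKM in knockout replicates 1, 2 and 3 and at 324, 318 and 352 RPKM in wildtype. Knockout replicates 1 and 2 were above all wildtype libraries, and knockout replicate 3 lay within their range. The log2 change was 0.19 (95% interval -0.041 to 0.41, limma adjusted p = 0.297). Set against its nucleotide exchange factor Grpel1, the Hspa9 ratio was 4.99, 5.42 and 5.12 in knockout and 4.44, 4.62 and 4.61 in wildtype replicates 1, 2 and 3. That ratio did not overlap between groups (exact permutation p = 0.10, adjusted 0.35 over 7 ratios, n = 3 each).

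Hspd1, the chaperonin barrel, overlapped between genotypes. It stood at 81.0, 83.9 and 74.5 RPKM in knockout replicates 1, 2 and 3 and at 71.2, 82.2 and 84.8 RPKM in wildtype. The highest and the lowest library were both wildtype. Its log2 change was 0.0094 (95% interval -0.19 to 0.21, limma adjusted p = 0.964).

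Hspe1, the lid of the chaperonin, gave 27.9, 33.5 and 32.1 RPKM in knockout replicates 1, 2 and 3 and 35.5, 34.2 and 34.6 RPKM in wildtype. All 3 knockout libraries were lower, with replicate 1 the lowest, and the wildtype libraries lay close together. The log2 change was -0.16 (95% interval -0.35 to 0.034, limma adjusted p = 0.296). Knockout lay below wildtype in every library for 5.11% of tested genes, and for 13.1% after median-of-ratios scaling. The change stayed below 0 in all 15 alternatives and passed in none. Of 3 Hspe1 rows, 2 separated the groups and 1 overlapped. The ratio of Hspd1 to Hspe1, the pair that shares the heat shock element printed above, was 2.58 ± 0.300 in knockout and 2.29 ± 0.244 in wildtype and overlapped (exact permutation p = 0.40, n = 3 each).

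Trap1 had the smallest SD over mean of the 10 genes across the 6 libraries. It stood at 101, 99.9 and 96.1 RPKM in knockout and at 99.6, 102 and 94.5 RPKM in wildtype replicates 1, 2 and 3. The groups interleaved, and the log2 change of 0.0029 had a 95% interval of -0.15 to 0.16 (limma adjusted p = 0.987).

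None of the inner membrane proteases passed (limma, 0 of 3, also 0 of 3 at an unadjusted p under 0.05, against 7.67% and 23.5% of all tested genes). Afg3l2, the subunit of the protease that faces the matrix, stood at 81.0, 80.2 and 68.7 RPKM in knockout replicates 1, 2 and 3 and at 70.6, 65.2 and 76.7 RPKM in wildtype. Knockout replicates 1 and 2 were the highest libraries and knockout replicate 3 lay among the wildtype ones. The log2 change was 0.11 (95% interval -0.10 to 0.33, limma adjusted p = 0.522). The ratio of Afg3l2 to Spg7, its partner subunit, was 2.15 ± 0.108 in knockout and 2.22 ± 0.197 in wildtype and overlapped (exact permutation p = 0.70, n = 3 each).

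Yme1l1, the protease that faces the intermembrane space, stood at 17.4, 16.8 and 16.0 RPKM in knockout and at 15.9, 17.6 and 16.3 RPKM in wildtype replicates 1, 2 and 3. Oma1, the stress-activated protease that cleaves OPA1 and DELE1, stood at 4.25, 4.55 and 3.72 RPKM in knockout and at 4.23, 4.46 and 4.19 RPKM in wildtype. Both genes interleaved between groups in the rows used here. Their log2 changes were 0.012 (95% interval -0.16 to 0.18) and -0.036 (95% interval -0.23 to 0.16), with limma adjusted p of 0.946 and 0.844. Of 7 Oma1 rows with a mean of at least 1 RPKM, 1 lay below wildtype in every knockout library and none above. That row, the most abundant, gave 5.97, 4.73 and 5.56 RPKM in knockout and 5.99, 6.32 and 6.02 RPKM in wildtype. The ratio of Oma1 to Yme1l1 was 0.249 ± 0.020 in knockout and 0.259 ± 0.0065 in wildtype and overlapped (exact permutation p = 0.50, n = 3 each).

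**Figure D4:**
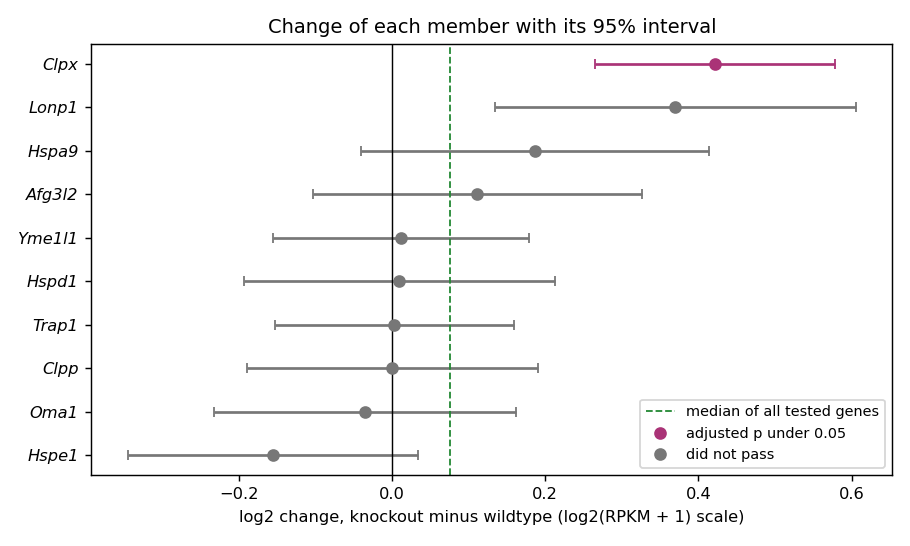
Log2 change of each of the 10 genes, knockout minus wildtype, on the log2(RPKM + 1) scale (x axis), with 95% intervals from limma and the median of all tested genes dashed at 0.075. The Clpx interval, 0.26 to 0.58, and the Lonp1 interval, 0.13 to 0.61, lie above that line, and the other 8 intervals span 0.

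The knockout libraries differed among themselves in these genes. Knockout replicate 3 was the lowest knockout library for 8 of the 10, and for 37.3% of tested genes. Clpp and Hspe1 were the exceptions. Knockout replicate 2 was the highest for 6 of the 10, and for 38.5% of tested genes. The spread between knockout replicates, as SD over mean, ran from 2.41% for Trap1 to 12.6% for Lonp1 and 11.7% for Hspa9.

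The genes that work with these chaperones and proteases were counted in 5 further lists, and none of 55 tested genes passed, against 7.67% of all tested genes. Limma gave 6 of the 55 an unadjusted p under 0.05, against 23.5% of all tested genes. Among co-chaperones of Hspa9 and the disaggregase Clpb, Clpb had the smallest p. It stood at 27.3, 26.8 and 24.1 RPKM in knockout and at 22.5, 21.1 and 22.0 RPKM in wildtype replicates 1, 2 and 3, with no overlap (log2 change 0.24, limma adjusted p = 0.0950). Among 14 other mitochondrial proteases the smallest p was that of Metap1d, an aminopeptidase for initiator methionine, at 21.8 ± 0.709 and 18.8 ± 2.20 RPKM (SD, n = 3 each). Among scaffolds and adaptors of the membrane proteases it was that of Ghitm, at 479 ± 42.8 and 420 ± 32.0 RPKM. Timm22 had the smallest p among 18 import translocases, at 8.96 ± 0.114 and 10.2 ± 0.060 RPKM. The medians of these lists lay between -0.0087 and 0.074 on the log2 scale.

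Alas1, the first enzyme of haem synthesis, is a known client of Clpx, which activates it and helps to degrade it. Its level was 132, 139 and 91.8 RPKM in knockout replicates 1, 2 and 3 and 73.4, 55.8 and 102 RPKM in wildtype. Wildtype replicate 3 exceeded knockout replicate 3, so the groups overlapped. The log2 change was 0.66 (limma adjusted p = 0.118), and it did not pass in 14 of 15 alternatives, with limma adjusted p up to 0.318. It was 0.45 without wildtype replicate 2 (limma adjusted p = 0.215) and 0.88 without wildtype replicate 3 (limma adjusted p = 0.0330).

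Of 5 stress regulators, Atf5 and Atf4 rose, none fell and 3 did not pass, against 6.95% of all tested genes called higher. Atf5 stood at 166, 245 and 222 RPKM in knockout replicates 1, 2 and 3 and at 80.4, 85.1 and 94.7 RPKM in wildtype, a log2 change of 1.26 (limma adjusted p = 0.00132). It passed in all 15 alternatives. Atf4 stood at 110, 110 and 120 RPKM in knockout and at 92.4, 67.0 and 83.6 RPKM in wildtype, a log2 change of 0.49 (limma adjusted p = 0.0387). The Atf4 call was lost without any one of the 3 knockout replicates (adjusted p 0.104, 0.112 and 0.115) and without wildtype replicate 3 (0.0611). It was also lost after median-of-ratios scaling (0.0810) and with no filter on low values (0.0774). Ddit3, which encodes CHOP, stood at 18.2 ± 2.78 and 17.8 ± 1.61 RPKM and overlapped (limma adjusted p = 0.914).

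The cytosolic chaperones driven by HSF1 were compared because Hspd1 and Hspe1 carry the heat shock element shown above. Of 15 tested, 4 fell, none rose and 11 did not pass, against 0.718% of tested genes called lower. In 11 of the 15, knockout lay below wildtype in every library, against 5.11% of tested genes. After median-of-ratios scaling this held for 12 of the 15, against 13.1% of tested genes. Hspa8, a constitutive Hsp70-type chaperone, fell from 71.6 ± 13.1 to 44.3 ± 1.11 RPKM, and Hsp90ab1 from 344 ± 47.2 to 237 ± 12.2 RPKM (SD, n = 3 each). Hsph1 stood at 8.38, 8.71 and 10.9 RPKM in knockout and at 15.5, 20.5 and 39.0 RPKM in wildtype replicates 1, 2 and 3, with wildtype replicate 3 far above the rest. Hspb1 fell from 12.0 ± 1.69 to 8.37 ± 0.651 RPKM. All 4 calls were lost without any one of the 3 knockout replicates, with limma adjusted p from 0.0550 to 0.122. Those of Hspa8 (0.0619) and Hsp90ab1 (0.0519) were also lost without wildtype replicate 1, and that of Hspb1 without wildtype replicate 2 (0.0506). With no filter on low values those of Hsp90ab1 (0.0517), Hsph1 (0.0829) and Hspb1 (0.0705) were lost, and that of Hspb1 also with scaling on respiratory chain genes (0.0691) and with rows summed (0.0522). The median log2 change was -0.50 for this list, 0.0061 for the 4 mitochondrial chaperones and 0.075 for all tested genes, and the difference between these sets was not tested.

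The nuclear genes of the respiratory chain serve as a reference for mitochondrial transcripts in general. None of 38 tested passed in limma and 1 had an unadjusted p under 0.05, against 7.67% and 23.5% of all tested genes. Their median log2 change was -0.0038. After median-of-ratios scaling, 15 of the 38 lay below wildtype in every knockout library, against 13.1% of tested genes. None lay above, against 14.1% of tested genes, so how flat this reference looks depends on the scaling. Sdhd, a membrane subunit of complex II, had the smallest p, at 514 ± 26.3 and 592 ± 37.7 RPKM. With libraries scaled on these genes, Clpx had a log2 change of 0.44 (limma adjusted p = 0.00758) and Lonp1 of 0.39 (limma adjusted p = 0.0735).

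**Figure D5:**
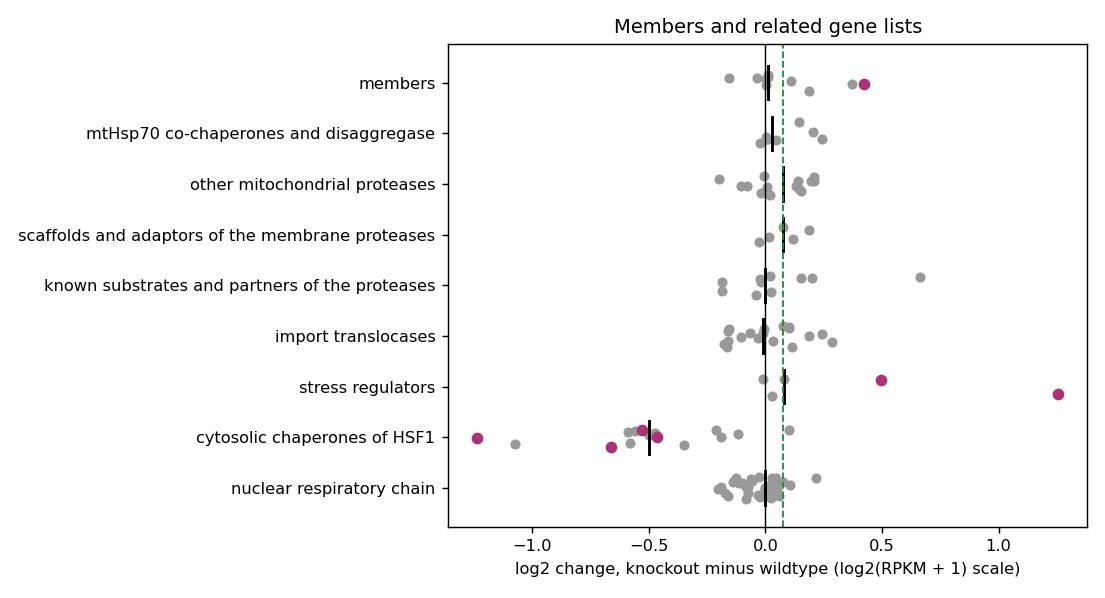
Log2 change of each tested gene, knockout minus wildtype, on the log2(RPKM + 1) scale (x axis), for the 10 genes (members) and 8 related lists (y axis), with called genes in purple, the others in grey, black ticks for list medians and the median of all tested genes dashed. Clpx is the called gene of the 10, Atf5 and Atf4 stand to the right, and the cytosolic chaperones centre on -0.50.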

How the data were processed

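Libraries were made with a TruSeq kit for RNA from total RNA, per the labels' protocols, and CASAVA and bcl2fastq are named, without versions, in the submitters' processing notes. No aligner, build, annotation or use of strand is given in the sources used here, so reads of overlapping genes cannot be separated. The authors' deposited table holds RPKM for 168326 transcript rows, with decimal commas and no stated unit. The unit was worked out from 46002 transcripts of known length, since 95.8% to 96.1% of low products of value and length were whole multiples of 1 step per library, within 0.1 reads.

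Rows with no gene identifier (13.8%) were left out. Each gene is represented by 1 row, preferring RefSeq NM or NR rows and then the highest mean. Values were transformed to log2(RPKM + 1), which understates changes of low genes. Genes whose mean reached 1 RPKM in knockout or wildtype were tested with limma 3.58.1 in R 4.3.3, with an intensity trend and genotype as the only factor, and p-values (two-sided, threshold 0.05) were adjusted over all of these genes after Benjamini and Hochberg. All 10 genes passed the filter. The fit was also run on simulated reads with known changes in both directions, which do not mimic the mostly upward calls of these data. Ratios were tested by exact permutation.

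The 10 genes and the related lists were chosen with earlier results of these data known. The rule named all 10 genes, up to 5 called genes per related list or else the gene with the smallest p, Ucp1, 3 stress regulators and 2 genes per marker list. For the marker lists summed levels are given, with calls for muscle, brown adipocyte, white adipocyte and macrophage markers and single levels for Ucp1 and Fabp4. Hbb-b1 had no gene in the table.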

Additional observations from a re-analysis of the deposited data

How the results depend on the processing

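Clpx passed in all 15 alternatives (log2 change 0.33 to 0.45, limma adjusted p 0.00758 to 0.0441), and Lonp1, Hspa9, Hspe1 and Afg3l2 kept their direction and did not pass in any. Their sizes moved: Lonp1, at 0.37 as reported, was 0.27 without knockout replicate 2, 0.45 without knockout replicate 3 and 0.27 with median-of-ratios scaling. Hspa9, at 0.19 as reported, was 0.098 without knockout replicate 2 and 0.088 with median-of-ratios scaling. Hspe1, at -0.16, was -0.080 without knockout replicate 1 and -0.25 with that scaling. Afg3l2, at 0.11, was 0.070 without knockout replicate 1, 0.19 without knockout replicate 3, 0.054 without wildtype replicate 2, 0.17 without wildtype replicate 3 and 0.014 with that scaling. The count of called genes was 454 with the filter at 5 RPKM, which also tests fewer genes. It ran from 455 to 849 when 1 replicate was left out, at 474 without knockout replicate 1 and 455 without knockout replicate 2. Clpx stayed the 1 called gene of the 10 throughout, and Oma1 fell under the filter at 5 RPKM. With median-of-ratios scaling, 646 genes were called, of which 76.5% were higher, against 90.6% as reported. That scaling divided knockout values by 1.029 to 1.048 and wildtype values by 0.953 to 0.977, which lowers the log2 change of each tested gene. It moved the median of the 10 genes to -0.085 and of all tested genes to -0.007. It turned the sign of Clpp (-0.096), Hspd1 (-0.088), Yme1l1 (-0.081), Trap1 (-0.095) and Ddit3 (-0.065), none of which passed. Summing rows turned Clpp (-0.0013), Hspd1 (-0.030) and Trap1 (-0.011), and the highest row of any kind turned Hspd1 (-0.084) and Trap1 (-0.052). Leaving out 1 replicate gave -0.070 to 0.047 for Clpp, -0.066 to 0.058 for Hspd1, -0.017 to 0.052 for Yme1l1, -0.028 to 0.027 for Trap1, -0.089 to 0.029 for Oma1 and -0.075 to 0.13 for Ddit3. The cause of the sign changes in the settings other than that scaling was not tested.

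With the replicate number as a block, 775 genes passed and Clpx had a limma adjusted p = 0.0300. Same-numbered libraries deviated from their group means with correlations of 0.092, 0.038 and -0.018 across genes, and differently numbered ones with -0.137 to 0.070. The 0.092, between the replicates numbered 1, was the highest, while knockout replicate 2 correlated best with wildtype replicate 3 (0.070). With 3 libraries per group, such correlations cannot decide whether the numbers pair the samples. With the block, Hsph1 had a limma adjusted p = 0.00612, against 0.0337 as reported. The depth of Oma1, about 128 reads in its lowest library, and the 3 libraries per group limit what small changes could be detected.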
